A study of Mesocricetus auratus and Mus musculus with 214 samples.

Results

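The step from pre-leptotene to leptotene spermatocytes was examined in wild type golden hamsters (Mesocricetus auratus), by setting the 2 leptotene RNA libraries of a spermatogenesis stage series against its 2 pre-leptotene libraries for every gene. These 4 libraries were chosen by their stage labels, with no measured value, from the 14 libraries of the stage series and the 214 samples of the whole series. The series addresses PIWI proteins and their small RNAs in hamster gametogenesis. Testes of adult males, 6 or 16 weeks old by the study's methods, were dissociated and stained for DNA content and viability, and spermatogonia, pre-leptotene, leptotene, zygotene and pachytene spermatocytes, round sperm and mature sperm were sorted by FACS, 2 libraries each, with no transgene or treatment in any group. A second sort of wild type (WT) cells into a spermatogonia and pre-leptotene gate (SPG/PL) and a leptotene and zygotene gate (LZ), 4 libraries each, was used as a separate set of libraries. The fit of that sort also took in its pachytene and diplotene libraries and libraries of Piwil1 mutant males, which are not compared here.

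Pre-leptotene spermatocytes are the germ cells that carry out the last DNA replication before meiosis, after retinoic acid has induced the meiotic initiators STRA8 and MEIOSIN. In leptotene the replicated chromosomes condense along protein axes made of cohesins, HORMA-domain proteins and SYCP2 and SYCP3, and SPO11 cuts the DNA at sites marked by PRDM9. The broken ends are then coated by recombinases and single-strand binding proteins that search for the homologous chromosome, while telomeres attach to the nuclear envelope.

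RNA was amplified by Smart-seq2, a method without strand information, and the deposited values are FPKM, fragment counts divided by gene length and by the total of the library. The labels do not say that the 2 libraries of a stage came from separate animals. The p-values and standard errors (SE) of the stage comparison thus measure only spread between libraries, pooled over the 14 libraries of the stage series. An exact permutation test of 2 against 2 cannot go below p = 0.333. The totals behind the FPKM values, inferred from whole-fragment steps of short genes, were 3530000 to 4700000 fragments in the 4 libraries, so that 1 fragment in a gene of 1 kb is worth 0.213 to 0.283 FPKM. The leptotene libraries had 26376 and 25309 genes with a value above 0, against 22620 and 20077 in pre-leptotene, 22725 and 22128 in spermatogonia and 23001 and 21372 in zygotene. Across the 11728 genes tested, Pearson's r of log2(FPKM + 1) was 0.920 between the pre-leptotene libraries and 0.960 between the leptotene libraries, and pre-leptotene replicate 1 was closer to both leptotene libraries (0.941 and 0.938) than to the other pre-leptotene library. Pre-leptotene replicate 2 stood apart in spermatid genes too: 17 listed genes of the file sum to 1373 FPKM there, against 197 in pre-leptotene replicate 1. The sums were 358 and 763 in leptotene, 587 and 943 in spermatogonia, 476 and 462 in zygotene and 12308 and 14253 in round sperm. The 13 Sertoli cell genes in the file sum to 44.98 and 52.8 FPKM in pre-leptotene and 73.3 and 168 in leptotene. They sum to 54.9 and 148 in spermatogonia and 93.2 and 51.5 in zygotene. In leptotene Clu held 42.8 and 109, and the transcription factor genes Sox9 and Wt1 stood at 0.337 to 1.37. Of the 7 that could be tested as described below, 0 passed, and their median log2 difference was 0.62, beside 0.19 for all genes. Both leptotene libraries lay above both pre-leptotene libraries for 3 of the 7 and below both for 0, beside 37.4% and 14.7% of all genes. The 21 genes of peritubular, vessel and blood cells sum to 16.2 and 10.3 FPKM in pre-leptotene and 37.8 and 22.4 in leptotene, with Ptprc, the pan-leukocyte marker, at or below 0.218 and the smooth muscle actin gene Acta2 at 0 in both pre-leptotene libraries and 0.605 and 0.388 in leptotene. The part of these cells in the results below was not tested.

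**Figure D1:**
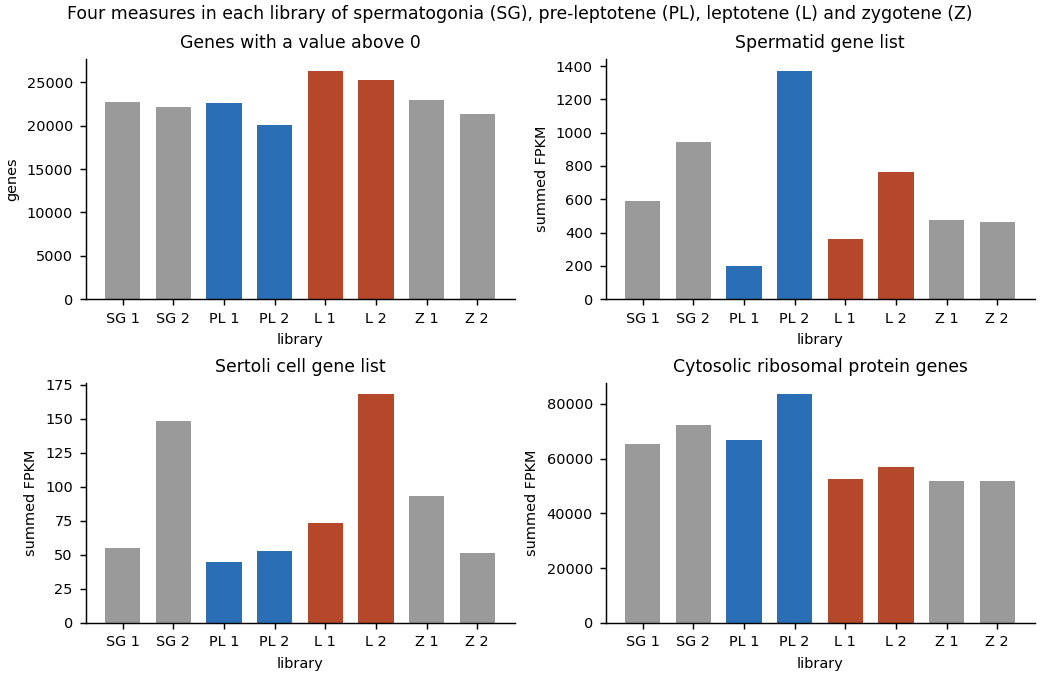
Bars give, for each library of spermatogonia (SG), pre-leptotene (PL), leptotene (L) and zygotene (Z), the number of genes above 0 and the summed FPKM of the spermatid, Sertoli cell and cytosolic ribosomal protein lists, with replicate numbers under the bars and every axis starting at 0. The leptotene libraries had the most genes above 0 of these 8 libraries (26376 and 25309), and PL 2 had the highest spermatid sum (1373) and the highest ribosomal protein sum (83595).

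A gene was tested where its FPKM exceeded 2 in at least 40% of the 4 libraries, with limma on log2(FPKM + 1) in a fit of all 14 libraries, and Benjamini-Hochberg adjustment over the 11728 genes. At adjusted p under 0.05, 547 genes (4.66% of those tested) were higher in leptotene and 70 (0.597%) were lower. With a 4-fold difference and adjusted p under 0.01, 39 genes (0.333%) were higher, of which 20 code for protein, 10 are lncRNAs and 8 are tRNA, snoRNA or snRNA genes, and a single gene, CUNH9orf116, was lower (0.00853%). The median log2 difference of all genes tested was 0.19 in favour of leptotene. Rescaling the libraries by their median ratio moved it to -0.08 and the calls from 547 and 70 to 186 higher and 183 lower, so that the share of calls that are higher went from 88.7% to 50.4%. The directions given here are on the deposited scale and are to be read against that median. Without regard to any test, both leptotene libraries lay above both pre-leptotene libraries for 4388 genes (37.4%) and below both for 1727 (14.7%). The groups did not overlap for any of the 359 higher and 50 lower genes with a gene name. Where such a gene is said below not to overlap, that adds nothing to its call.

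Single libraries carried much weight in these counts. No gene passed without leptotene replicate 1 (0 higher and 0 lower, with 1096 genes at an unadjusted p under 0.05), and 41 were higher and 1 lower without leptotene replicate 2. Leaving out pre-leptotene replicate 1 gave 1109 higher and 172 lower, and leaving out pre-leptotene replicate 2 gave 183 and 4. When the 4 libraries were fitted alone, with no other stage to estimate the spread, limma called 0 genes, with 2018 at an unadjusted p under 0.05 and a smallest adjusted p of 0.140. The log2 differences are unchanged in that fit by construction, since each is a difference of stage means.

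**Figure D2:**
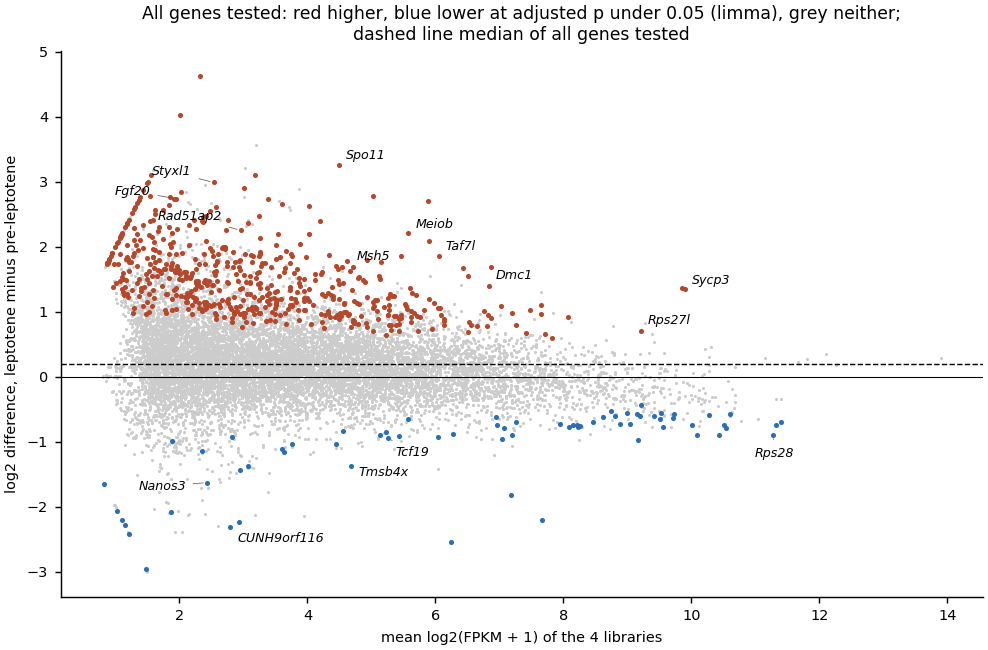
Each point is a gene tested, with the mean log2(FPKM + 1) of the 4 libraries on the x axis and the log2 difference, leptotene minus pre-leptotene, on the y axis; red points were higher (547) and blue points lower (70) at adjusted p under 0.05 by limma. The rays of red points at the left are genes at or near 0 in pre-leptotene, and the dashed line is the median of all genes, 0.19.

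The gene for the enzyme that makes meiotic breaks had the largest difference of any listed gene. Spo11, the topoisomerase-like protein that cuts DNA, stood at 9.56 and 4.03 FPKM in pre-leptotene and at 77.9 and 60.9 in leptotene. The log2 difference was 3.26 ± 0.39 (SE, n = 2 libraries a stage; adjusted p = 0.0044), a 10.2-fold ratio of the mean FPKM. CUNH11orf80, whose human namesake C11orf80 encodes TOPOVIBL, the partner of SPO11 in the cutting complex, was at 13.6 and 8.81 in pre-leptotene and 29.1 and 27.1 in leptotene (log2 difference 1.28, adjusted p = 0.0452); it was singled out after its values were seen. In both genes the leptotene libraries lay wholly above the pre-leptotene libraries.

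Of the 13 listed genes of break formation, Spo11 alone passed, beside 4.66% of all genes higher and 0.597% lower. The list median was 0.18 beside 0.19 for all genes. Prdm9, the histone methyltransferase that marks future break sites, was at 46.9 and 25.1 FPKM in pre-leptotene and 100.4 and 105 in leptotene, and its log2 difference of 1.55 missed the threshold (adjusted p = 0.0607). Zcwpw1, a reader of the marks PRDM9 leaves, was at 155 and 118 against 259 and 245 (0.89, adjusted p = 0.068). Rec114, an accessory factor of the cutting complex, went the other way in level, at 123 and 116 against 55.2 and 79.6, with a log2 difference of -0.84 that did not pass (adjusted p = 0.0918). The groups of libraries do not overlap for any of these genes. Spo11 failed without leptotene replicate 1 (adjusted p = 0.0908) and passed without any other library, while CUNH11orf80, with 1 of the 4 libraries left out, passed without pre-leptotene replicate 1 (adjusted p = 0.0283) and failed without each of the others.

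Of the 26 listed genes of strand invasion, the step in which a broken end finds its homologue, 5 were higher in leptotene, beside 4.66% of all genes, and none was lower. Meiob, a single-strand DNA binding protein specific to meiosis, was at 25.0 and 17.7 FPKM in pre-leptotene and 115 and 89.3 in leptotene, a log2 difference of 2.21 ± 0.24 (adjusted p = 0.00305). Rad51ap2 was at 3.56 and 1.77 against 16.7 and 15.2, a difference of 2.25 ± 0.30 (adjusted p = 0.00627). Mcmdc2, an MCM-like protein needed for homologue pairing in mouse, was at 2.27 and 3.78 against 14.5 and 10.7, a difference of 1.77 ± 0.34 (adjusted p = 0.0181). In each of the 3 genes the lower leptotene library was more than 2 times the higher pre-leptotene library. Dmc1, the meiosis-specific recombinase, was already at 87.3 and 55.3 in pre-leptotene and stood at 190.0 and 179 in leptotene (1.39 ± 0.25, adjusted p = 0.0151). Atr, a kinase that signals single-stranded DNA and unsynapsed chromosomes, was at 15.2 and 14.2 against 29.7 and 27.5 (0.92 ± 0.22, adjusted p = 0.0387).

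Spata22, the partner of MEIOB, was at 87.8 and 63.4 FPKM in pre-leptotene and 133 and 144 in leptotene and missed the threshold (a log2 difference of 0.88, adjusted p = 0.0619). The median of the 26 genes was 0.20, close to the 0.19 of all genes. None of the 5 passed without leptotene replicate 1 (adjusted p from 0.0877 to 0.329). Meiob and Rad51ap2 were the 2 that passed without leptotene replicate 2, and these and Mcmdc2 passed without pre-leptotene replicate 2.

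The chromosome axis and the synaptonemal complex, the protein zipper that will join homologues, held the largest share of genes that passed among the lists used. Of 11 genes tested, 4 were higher (4.66% for all genes) and none was lower, with a median log2 difference of 0.42. Sycp3, the axis protein used to stage spermatocytes, was at 666 and 537 FPKM in pre-leptotene and 1606 and 1453 in leptotene, a difference of 1.35 ± 0.15 (adjusted p = 0.00305). Sycp2, its partner, was at 79.5 and 52.02 against 232 and 190.1 (1.69 ± 0.28, adjusted p = 0.0105). Sycp1, which forms the transverse filaments, was at 163 and 112 against 344 and 249 (1.11 ± 0.22, adjusted p = 0.019). Hormad1, which loads on unsynapsed axes, was at 145 and 106 against 281 and 226 (1.02 ± 0.18, adjusted p = 0.0137). The leptotene libraries were above the pre-leptotene libraries in all 4 genes, and also in Syce3, a central element protein at 147 and 179 against 336 and 307, whose difference of 0.98 did not pass (adjusted p = 0.161). Sycp3 was the only 1 of the 4 to pass without leptotene replicate 2 or without pre-leptotene replicate 2, and none passed without leptotene replicate 1 (adjusted p of at least 0.0886).

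Of 19 cohesin genes tested, Nipbl, the cohesin loader, was the only gene that passed, at 15.8 and 11.9 FPKM in pre-leptotene and 24.5 and 23.3 in leptotene (0.76 ± 0.19, adjusted p = 0.0465), and it passed in a single setting that leaves out a library, without pre-leptotene replicate 1. Of all genes tested 4.66% were higher and 0.597% lower. The meiotic cohesins were present at both stages. Smc1b was at 118 and 94.1 against 139 and 141 (0.41, adjusted p = 0.197), and Rad21l1 at 29.1 and 15.8 against 30.2 and 29.9 (0.47, adjusted p = 0.536). Rec8, the meiotic kleisin, was at 24.8 and 18.4 against 11.9 and 27.2, with leptotene libraries on both sides of the pre-leptotene ones (adjusted p = 0.847).

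**Figure D3:**
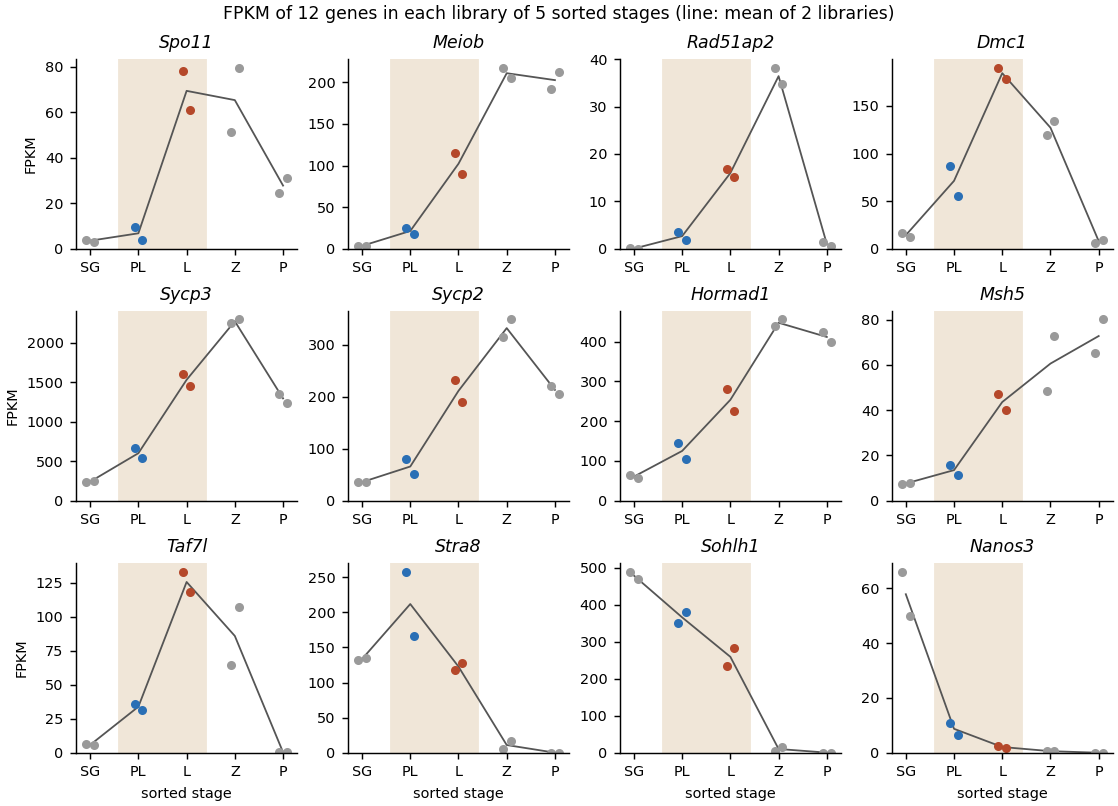
FPKM of 12 genes in each library of spermatogonia (SG), pre-leptotene (PL, blue), leptotene (L, red), zygotene (Z) and pachytene (P), with a line through the mean of the 2 libraries and a shaded band over the stages compared. Spo11 went from 9.56 and 4.03 to 77.9 and 60.9 between PL and L, Dmc1 and Sycp3 were already above their spermatogonial level in PL, and Stra8 and Sohlh1 reached low levels in Z rather than in L.

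Genes of crossover formation had a list median of 0.52, and 2 of 16 were higher, beside 4.66% of all genes. Msh5, a subunit of the MutS-gamma complex that holds recombination intermediates, was at 15.6 and 11.4 FPKM in pre-leptotene and 47.1 and 40.1 in leptotene (1.63 ± 0.23, adjusted p = 0.00702). Hfm1, a meiotic DNA helicase, was at 12.2 and 7.39 against 32.5 and 43.5 (1.88 ± 0.39, adjusted p = 0.0241). Msh4, the other MutS-gamma subunit, was lower in level at both stages, at 5.49 and 2.92 against 8.89 and 9.74, and missed the threshold (1.03, adjusted p = 0.0934). Rnf212b, a meiotic RING-finger protein, also fell short of it at 95.2 and 55.7 against 147 and 141 (0.97, adjusted p = 0.0566). Both leptotene libraries lay above both pre-leptotene libraries for 10 of the 16 genes, a share to be read against 37.4% for all genes.

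Among 13 genes of telomere attachment, Spdya, the activator of CDK2 at telomeres, passed narrowly at 34.3 and 29.7 FPKM in pre-leptotene and 65.1 and 68.2 in leptotene (1.04 ± 0.27, adjusted p = 0.0497) and kept its call in 2 of 14 alternative settings. Spdya was the only gene of the 13 that passed, beside 4.66% of all genes higher. Majin, which tethers telomeres to the inner nuclear membrane, was at 188 and 134 against 229 and 223 (0.50, adjusted p = 0.36). Msh5 was the gene of this group that passed without leptotene replicate 2 or without pre-leptotene replicate 2; Hfm1 and Msh5 passed without pre-leptotene replicate 1, and neither did without leptotene replicate 1 (adjusted p of at least 0.135).

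Among regulators of meiotic entry 0 of 15 passed in either direction, and their median was -0.08. Stra8, the retinoic acid induced initiator, was at 258 and 166 FPKM in pre-leptotene and 118 and 128 in leptotene, and the difference of -0.75 ± 0.41 did not pass (adjusted p = 0.33), although the groups do not overlap. Its partner Meiosin was at 119.7 and 43.95 against 126 and 127 (0.80, adjusted p = 0.311), and the spread between the pre-leptotene libraries was as wide as the step. Fbxo47, an F-box protein needed for meiotic prophase in mouse, was at 130.3 and 64.7 against 182 and 174 (0.95, adjusted p = 0.19). Meioc, which stabilises the meiotic program in mouse, was at 47.7 and 25.8 against 48.0 and 66.4 (0.67, adjusted p = 0.259). Dazl, a germ cell translation regulator, was at 679 and 473 against 776 and 691 (0.37, adjusted p = 0.363). The median of the list was 0.29 without leptotene replicate 1 and 0.39 without pre-leptotene replicate 1.

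Spermatogonial genes persisted into leptotene at levels that did not pass a test of decline, apart from Nanos3. This RNA-binding protein of undifferentiated germ cells was at 11.0 and 6.48 FPKM in pre-leptotene and 2.45 and 1.72 in leptotene, a log2 difference of -1.63 ± 0.41 (adjusted p = 0.0455). It was the only 1 of 15 listed genes that was lower, beside 0.597% of all genes. The call was lost whichever of the 4 libraries was left out, with adjusted p from 0.0712 without pre-leptotene replicate 2 to 0.261 without leptotene replicate 1. Sohlh1, a transcription factor of differentiating spermatogonia, was at 351 and 381 against 235 and 283 (-0.50, adjusted p = 0.557). Dmrt1, which represses meiotic entry in mouse, was at 45.2 and 57.7 against 29.5 and 34.4 (-0.66, adjusted p = 0.237). Uchl1, a ubiquitin hydrolase used as a spermatogonial marker, was at 134 and 153 against 111 and 96.5 (-0.46, adjusted p = 0.695). Kit, the stem cell factor receptor, overlapped between the stages at 40.5 and 28.1 against 24.7 and 37.3. In zygotene these 4 genes stood at 0.929 to 15.2 FPKM, while the 26 listed spermatogonial genes in the file summed to 640 and 679 in pre-leptotene, 467 and 514 in leptotene and 29.2 and 55.6 in zygotene. In sorted populations fewer cells that carry a transcript and less of it per cell cannot be told apart. Of 9 retinoid pathway genes none passed, with a median of 0.29; the retinoic acid binding protein gene Crabp1 was at 303 and 302 in pre-leptotene and 171 and 206 in leptotene (-0.69, adjusted p = 0.103).

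DNA replication genes were expressed at both stages, and 0 of the 52 tested passed. Their median was -0.19 against 0.19 for all genes, and both leptotene libraries lay below both pre-leptotene libraries for 24 of them, with 14.7% of all genes doing so. Dut, which removes dUTP from the nucleotide pool, was at 434 and 493 FPKM in pre-leptotene and 239.7 and 263 in leptotene (-0.88, adjusted p = 0.137). Rpa3, the small subunit of replication protein A, was at 37.4 and 33.3 against 21.004 and 21.2 (-0.72, adjusted p = 0.063), and the primase gene Prim1 at 109 and 108 against 72.8 and 69.1 (-0.60, adjusted p = 0.0993). The sliding clamp gene Pcna differed little, at 455 and 407 against 381 and 339.7 (-0.26, adjusted p = 0.594). The replication list sums to 4616 and 4243 FPKM in pre-leptotene, 3722 and 3670 in leptotene and 2584 and 2619 in zygotene, so the order of the stages is the same in every library of these 3.

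Cell cycle genes had a median of -0.04. Of 37 tested 1 was higher, beside 4.66% of all genes, and none was lower. Ccnb3, a cyclin needed in meiosis, was at 15.01 and 8.11 FPKM in pre-leptotene and 43.6 and 33.6 in leptotene (1.70 ± 0.31, adjusted p = 0.0158). Outside the lists, Tcf19, a chromatin protein linked to the G1/S transition, was lower, at 49.5 and 54.7 against 26.3 and 26.97 (-0.94 ± 0.20, adjusted p = 0.0276). Fbxo5, which encodes the APC/C inhibitor EMI1, was also lower, at 58.1 and 58.2 against 29.8 and 31.1 (-0.91 ± 0.23, adjusted p = 0.0455). Both pairs of libraries were tight for Fbxo5 and did not overlap. Ccnb3 and Tcf19 passed without pre-leptotene replicate 1, and none of the 3 passed without any other of the 4 libraries (adjusted p of at least 0.0645).

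Genes of the piRNA pathway, which makes small RNAs that silence transposons in germ cells, had a median of 0.44, and 2 of 20 were higher, beside 4.66% of all genes. Ddx4, the germ cell RNA helicase of the nuage, was at 79.4 and 62.7 FPKM in pre-leptotene and 127 and 120.2 in leptotene (0.80 ± 0.16, adjusted p = 0.0213). Rnf17, a Tudor protein of germ cell granules, passed at the edge of the threshold, at 18.3 and 15.9 against 30.1 and 39.1 (0.97 ± 0.25, adjusted p = 0.0499). Of 14 alternative settings Ddx4 kept its call in 8 and Rnf17 in 3. Among the PIWI genes themselves, Piwil2 was at 12.8 and 9.33 against 22.5 and 21.4 and did not pass (0.95, adjusted p = 0.15). Piwil1 was at 7.52 and 1.84 against 9.25 and 7.94 (0.96, adjusted p = 0.196), while it reached 432 and 467 in pachytene. Piwil4, at 1.07 and 2.21 against 1.04 and 1.51, and Piwil3, at or below 0.142 in the 4 libraries, were too low to be tested.

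Among 23 germ cell RNA-binding protein genes, 2 were higher (Ddx4 and Ptbp2), beside 4.66% of all genes. Nanos3 alone was lower, beside 0.597% of all genes, and the list median was 0.33. Ptbp2, a splicing regulator of spermatocytes in mouse, was at 21.1 and 15.3 FPKM in pre-leptotene and 42.4 and 38.6 in leptotene (1.13 ± 0.27, adjusted p = 0.0387). Ddx4 and Ptbp2 passed without pre-leptotene replicate 1, and neither they nor Rnf17 passed without any other of the 4 libraries (adjusted p of at least 0.105). Without pre-leptotene replicate 2 the median of the piRNA list was 0.13. Of 15 genes of DNA and H3K9 methylation none passed, with a median of 0.11 that was 0.37 without pre-leptotene replicate 1, -0.20 without pre-leptotene replicate 2 and -0.17 under the median ratio scaling.

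Regulators that act later in meiosis had the highest median of the lists with more than 10 genes tested, 0.63, and 2 of 15 were higher, beside 4.66% of all genes. Taf7l, a germ cell paralogue of the TFIID subunit TAF7, was at 35.9 and 31.7 FPKM in pre-leptotene and 133 and 118 in leptotene (1.86 ± 0.24, adjusted p = 0.00627). Kctd19, a partner of the meiotic zinc-finger protein ZFP541, was at 24.9 and 15.8 against 62.8 and 54.5 (1.51 ± 0.22, adjusted p = 0.00775). Mybl1, the master regulator of pachytene transcription, remained low at 3.01 and 0.919 against 4.45 and 5.72 and did not pass (1.13, adjusted p = 0.0801). Among 12 pachytene genes with a median of 0.51, 1 was higher, beside 4.66% of all genes. This was Hspa2, the germ cell HSP70, at 29.5 and 19.8 against 67.0 and 53.8 (1.28 ± 0.21, adjusted p = 0.0112). The 14 pachytene genes in the file summed to 375 and 390 in pre-leptotene and 516 and 446 in leptotene, and to 5407 and 5087 in pachytene, so leptotene lay far nearer to pre-leptotene. The pachytene list median was 0.28 without pre-leptotene replicate 1 and 0.87 without pre-leptotene replicate 2. Taf7l passed without leptotene replicate 2 (adjusted p = 0.0437), Taf7l and Kctd19 without pre-leptotene replicate 2, and none of the 3 genes without leptotene replicate 1 (adjusted p of at least 0.129).

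Cytosolic ribosomal protein genes made up 13 of the 70 lower genes. Of 77 tested, 13 were lower, beside 0.597% of all genes, and 1 was higher. The median was -0.37, and both leptotene libraries lay below both pre-leptotene libraries for 64, with 14.7% of all genes doing so. Rps28 was at 2559 and 4472 FPKM in pre-leptotene and 1823 and 1809 in leptotene (-0.90 ± 0.20, adjusted p = 0.0309), and Rpl37a at 1487 and 2400.25 against 967 and 1067 (-0.89 ± 0.19, adjusted p = 0.027). Rps19 was at 3047 and 3848 against 1842 and 2435 (-0.69 ± 0.15, adjusted p = 0.0276). Pre-leptotene replicate 2 was the highest library in all 3. The single gene that was higher, Rps27l, a paralogue of Rps27 induced by p53, was at 540.3 and 394 against 735 and 773 (0.71 ± 0.15, adjusted p = 0.0279). Reads that map to several places were counted, so these genes share reads with their pseudogenes and close copies. The list summed to 66896 and 83595 FPKM in pre-leptotene and 52717 and 57111 in leptotene, beside 65368 and 72306 in spermatogonia. None of the 77 was lower without pre-leptotene replicate 2, when the median was -0.26, and none without leptotene replicate 1; 1 was lower without leptotene replicate 2 and 27 without pre-leptotene replicate 1. Under the median ratio scaling 31 were lower and the median was -0.67, and 2 were lower with no filter on low values and 0 without a trend in eBayes, settings in which Rps28, Rpl37a and Rps19 lost their calls.

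The most abundant transcripts were mitochondrial and ribosomal, apart from Ftl. CYTB, the mitochondrially encoded cytochrome b, was at 13496 and 14092 FPKM in pre-leptotene and 16224 and 17521 in leptotene (0.29, adjusted p = 0.726), and ND4, a complex I subunit, at 3872 and 3916 against 5067 and 4879 (0.35, adjusted p = 0.577). Of the 13 mitochondrially encoded protein genes none passed and their median was 0.23, although the groups did not overlap for CYTB and ND4. Stress and immediate-early genes, which respond to dissociation, had 0 of 17 past the threshold and a median of 0.08.

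**Figure D4:**
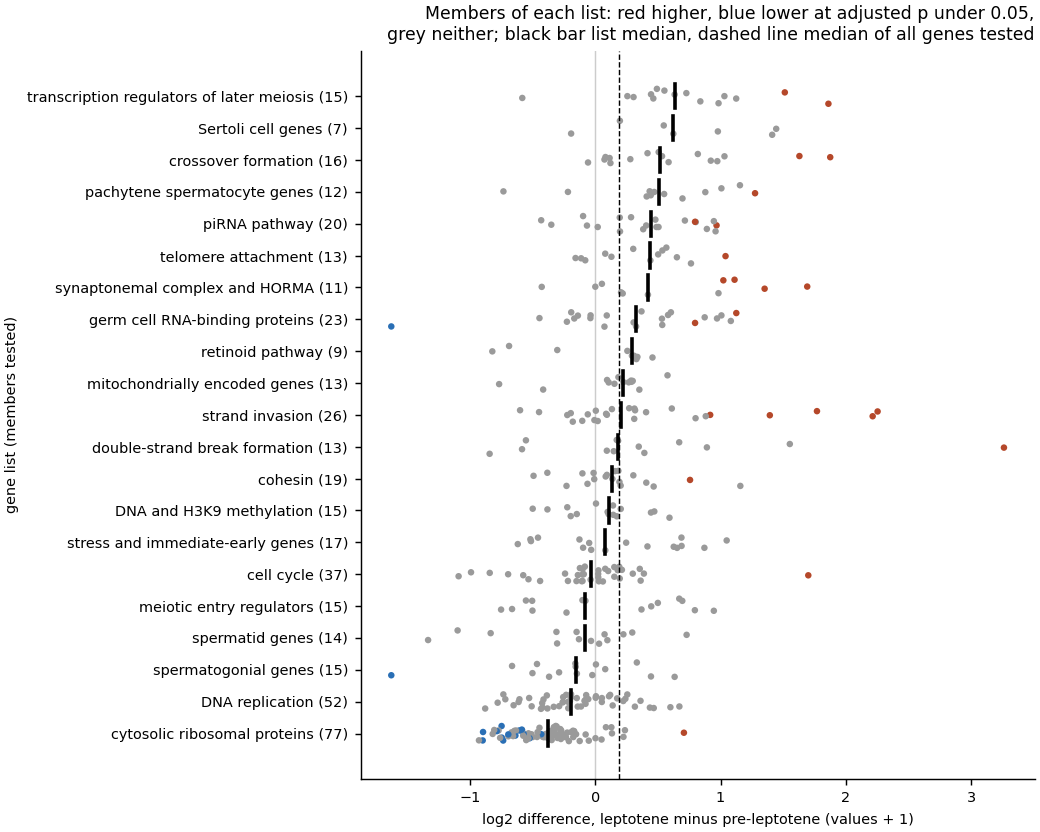
Each point is a gene, placed by its log2 difference, leptotene minus pre-leptotene, in the 21 lists with at least 5 genes tested, which are ordered by median (black bars) with the number tested in brackets. The later meiosis list has the highest median (0.63) and the ribosomal proteins the lowest (-0.37), the dashed line is the median of all genes (0.19), and Spo11 is the red point at 3.26.

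Several genes outside the lists had larger fold changes than most meiotic genes. Styxl1, a catalytically inactive phosphatase-like protein, was at 0.970 and 1.15 FPKM in pre-leptotene and 16.4 and 14.4 in leptotene, a log2 difference of 2.99 ± 0.32 (adjusted p = 0.00305). CUNH5orf47 was at 15.4 and 8.40 against 86.0 and 82.4 (2.78 ± 0.28, adjusted p = 0.00305), a level above that of Spo11 in leptotene. Fgf20, a fibroblast growth factor, was at 0.885 and 0.184 against 9.54 and 8.48 (2.74 ± 0.31, adjusted p = 0.00305). In each of the 3 the leptotene libraries lay close together and far above the pre-leptotene ones. CUNH12orf40, whose human namesake C12orf40 encodes the recombination protein REDIC1, was at 3.09 and 2.35 against 20.9 and 15.7 (2.37 ± 0.37, adjusted p = 0.00888). Stpg2, a sperm-tail PG-rich repeat protein, was at 1.29 and 1.25 against 15.2 and 8.83 (2.47 ± 0.35, adjusted p = 0.00627), and Lrriq3 at 3.81 and 3.32 against 20.9 and 17.3 (2.13 ± 0.23, adjusted p = 0.00305). The troponin C gene Tnnc1, Ccdc163, Ccdc122, the Golgi membrane protein gene Yipf7, Setd9 and Gdpd4 were also among the 20 largest, with log2 differences of 2.26 to 2.73 and pre-leptotene values of 0 to 5.199. Styxl1, Fgf20, Stpg2, Tnnc1 and Yipf7 had at most 2 FPKM in both pre-leptotene libraries. They were tested only because of the leptotene libraries in which they were high, so the filter bears on their direction. Of these 12 genes 7 could be tested without leptotene replicate 1, when none passed (adjusted p of at least 0.0703), and 7 without leptotene replicate 2, when CUNH5orf47 and Lrriq3 passed; without pre-leptotene replicate 2, Setd9 and Gdpd4 were the 2 that did not.

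Small RNA genes entered the calls on very few fragments. Of the 22 tRNA, snoRNA and snRNA genes called higher, 16 had at most 3 fragments in each leptotene library, and the tRNA gene Trnaq-cug was called with 1 fragment in each leptotene library and 0 in each pre-leptotene library. Trnak-cuu, with the largest fitted difference of all, had 6 and 8 fragments in leptotene and 0 and 0 in pre-leptotene. Both pre-leptotene libraries were at 0 for 38 of the 547 higher genes, of which 4 code for protein, and both leptotene libraries for 6 of the 70 lower genes, Trnad-guc among them with 1 and 2 fragments in pre-leptotene. Fragments are inferred from gene lengths and the totals, and Smart-seq2, which primes on poly(A) tails, does not sample such short RNAs reliably. Without these 3 classes 525 genes were higher.

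Long non-coding RNAs (lncRNAs) made up 101 of the 547 higher genes. They were 12.3% of the 822 lncRNAs tested, and none was lower (0%). Of 10337 protein-coding genes 408 (3.95%) were higher and 63 (0.609%) lower. The filter bears on these shares: 62 of the 101 lncRNAs and 72 of the 408 coding genes had at most 2 FPKM in both pre-leptotene libraries and so were tested only because of the leptotene libraries in which they were high, and the classes are not compared. The 101 had medians of 1.04 and 0.810 FPKM in pre-leptotene and 7.15 and 6.22 in leptotene, beside 1.35 and 1.10 in spermatogonia, 4.93 and 6.49 in zygotene and 1.57 and 1.66 in pachytene. Their medians thus stayed up in zygotene and were near the earlier level in pachytene. The 408 higher coding genes had medians of 6.27 and 4.61 in pre-leptotene and 16.4 and 14.4 in leptotene, and 26.1 and 25.8 in pachytene. More lncRNAs had a value above 0 in the leptotene libraries (5334 and 4890) than in pre-leptotene (3698 and 3100) or zygotene (4119 and 3552), and the part of this in the calls was not tested. The lncRNAs called were 48 with a pseudocount of 0.1, 63 with no filter, 58 with the filter at FPKM 5, 41 under the median ratio scaling, 34 without pre-leptotene replicate 2, 2 without leptotene replicate 2 and 154 without pre-leptotene replicate 1, and 0 without leptotene replicate 1. Antisense lncRNAs cannot be told apart from overlapping genes in libraries without strand.

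Lower genes were few and mostly abundant: the 63 that code for protein had medians of 340.3 and 366 FPKM in pre-leptotene and 183 and 229 in leptotene. CUNH9orf116, whose human namesake C9orf116 encodes the ciliary microtubule protein PIERCE1, was at 16.5 and 12.7 against 2.89 and 1.49 (-2.32 ± 0.35, adjusted p = 0.00789). It was at 1.86 and 3.48 in spermatogonia and 2.56 and 5.76 in zygotene, so pre-leptotene was above its neighbours, but round sperm held far more of it (121 and 101.2). Ccdc166 was at 11.2 and 14.04 against 4.42 and 4.06 (-1.37 ± 0.21, adjusted p = 0.00888), and at 166 and 141 in round sperm. The part of spermatid transcripts, whose sums are given above, in these values was not tested. Tmsb4x, the actin-sequestering thymosin beta 4, was at 47.1 and 34.5 against 14.6 and 15.5 (-1.36 ± 0.29, adjusted p = 0.0265). Mtfp1, a mitochondrial fission protein, was at 21.2 and 14.6 against 6.41 and 8.45 (-1.15 ± 0.25, adjusted p = 0.0287), and Fgf19, a fibroblast growth factor, at 7.11 and 6.09 against 2.46 and 2.403 (-1.14 ± 0.28, adjusted p = 0.043). Psmb10, an immunoproteasome subunit, was at 95.5 and 84.8 against 47.9 and 46.1 (-0.92 ± 0.19, adjusted p = 0.0229). Mif, a cytokine, was at 1287 and 1706 against 683 and 937 (-0.89 ± 0.22, adjusted p = 0.0422). None of these 7 genes passed without leptotene replicate 1 or leptotene replicate 2 (adjusted p of at least 0.0626), 4 passed without pre-leptotene replicate 1 (CUNH9orf116, Ccdc166, Mif and Psmb10) and 3 without pre-leptotene replicate 2 (CUNH9orf116, Ccdc166 and Mtfp1).

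Beside the neighbouring steps of the same series, which share libraries with this one, the step had an intermediate count of higher genes and the smallest count of lower genes in the main setting. From spermatogonia to pre-leptotene 154 genes were higher (1.31%) and 299 lower (2.55%), and from leptotene to zygotene 750 were higher (6.39%) and 2401 lower (20.5%), of the same 11728. These genes were chosen by their values in the pre-leptotene and leptotene libraries. Genes expressed only in spermatogonia or first in zygotene were thus left out of all these counts. The counts of this step also moved with the scaling and the libraries kept, as given above, so the order of the steps is not a general one. Sycp3 had log2 differences of 1.31 from spermatogonia to pre-leptotene, 1.35 to leptotene and 0.57 to zygotene (adjusted p = 0.0033, 0.00305 and 0.018). Spo11 had 0.69, 3.26 and -0.11, with the middle step alone past the threshold (adjusted p = 0.31, 0.0044 and 0.87). Dmc1 had 2.22, 1.39 and -0.53 (adjusted p = 0.0033, 0.0151 and 0.15), and Meiob 2.31, 2.21 and 1.05 (adjusted p = 0.0024, 0.00305 and 0.0097). Sohlh1 had -0.39, -0.50 and -4.72 (adjusted p = 0.62, 0.557 and 7.6e-05), and Stra8 0.63, -0.75 and -3.58 (adjusted p = 0.38, 0.33 and 0.00022). Crabp1 and Dut, at -0.69 and -0.88 into leptotene, had -4.31 and -4.23 into zygotene (adjusted p = 1e-05 and 3.9e-05).

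The genes that passed were then read in the second sort, whose LZ and SPG/PL libraries come from other sorted cells and whose values are fragments per kilobase relative to 10000 reads of ERCC spike-in RNA. The gates are wider, since SPG/PL also holds spermatogonia and LZ also holds zygotene cells. Of 5934 genes tested there by limma, 2021 (34.1%) were higher in LZ and 1545 (26%) were lower. Of the 547 genes higher in leptotene, 261 could be tested, 259 had the same direction and 253 (96.9%) passed, with a median log2 difference of 1.596. Of the 70 lower genes 55 could be tested, 47 had the same direction and 37 (67.3%) passed, with a median of -0.68. In the opposite direction 1 and 2 genes passed. The filter bears on these counts. A gene at or below 2 in every SPG/PL library was tested only because it was high in LZ libraries, so its direction was set by the filter. Of the 101 higher lncRNAs 12 could be tested, and all 12 were higher in LZ, which for this reason is not read as agreement. The 4 libraries of a gate are numbered 1 and 2 with the letters A and B, and the labels do not say whether A and B share an animal or a sort, so the p-values may count related libraries as separate. With A and B of a number averaged, 1839 genes were higher and 1544 lower, and 264 of the 276 higher and 36 of the 55 lower genes that could be tested passed in the same direction. The fit also drew its spread from Piwil1 mutant libraries. With the 8 WT libraries fitted alone, 1399 genes were higher and 1204 lower. In that fit 244 of the 261 higher and 30 of the 55 lower genes passed in the same direction.

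Spo11 was at 0.310, 0.701, 0.714 and 0.837 in the SPG/PL libraries and at 6.71, 9.65, 13.2 and 16.9 in the LZ libraries (2.88, adjusted p = 1.3e-13). Meiob was at 0.462 to 1.79 against 24.02 to 68.2 (4.36, adjusted p = 8.4e-15), and Sycp3 at 28.2 to 60.3 against 327 to 447 (3.01, adjusted p = 3.4e-14). In the other direction Nanos3 was at 4.66 to 10.7 against 0.326 to 0.545 (-2.53, adjusted p = 1.3e-14). For these 4 genes no LZ library overlapped a SPG/PL library. Spo11 and Meiob, below 2 in every SPG/PL library, were tested there only through the LZ libraries. Stra8 and Sohlh1, which did not pass between pre-leptotene and leptotene, were lower in LZ (-2.43 and -3.42, adjusted p = 7.8e-10 and 1.3e-14). Prdm9, which missed the threshold, was higher (1.52, adjusted p = 0.00039), at 1.20 to 3.22 in SPG/PL, 2.92 and 3.62 in the LZ libraries numbered 1 and 18.9 and 20.3 in those numbered 2. The LZ libraries numbered 1 stood apart in later genes, with Piwil1 at 28.3 and 77.7 against 1.41 and 2.53 in those numbered 2 and pachytene list sums of 275.5 and 698 against 70.5 and 103.1. Without the WT libraries numbered 1, 1327 genes were higher and 1913 lower in LZ, and of the 547 and 70 genes 258 of 288 tested and 46 of 55 tested passed in the same direction.

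**Figure D5:**
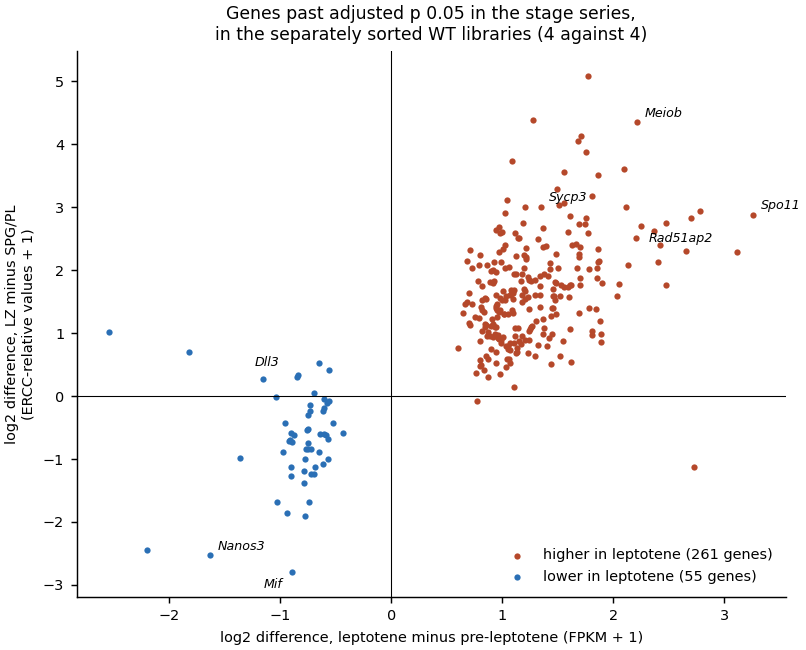
Genes past adjusted p 0.05 between leptotene and pre-leptotene that could also be tested in the second sort, with the stage series log2 difference on the x axis and LZ minus SPG/PL in the separately sorted WT libraries on the y axis. Red points are the 261 higher genes, of which 259 lie above 0, and blue points the 55 lower genes, of which 47 lie below 0.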

How the data were processed

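RNA of sorted testis cells was sequenced after Smart-seq2. For the stage series the authors deposited FPKM, obtained from adapter trimming (Trim Galore 0.5.0), alignment to the hamster assembly BCM_Maur_2.0 by STAR 2.9 with multi-mapped reads kept, and gene counting by featureCounts 1.6.4 without strand; the labels list a mouse build. For the second sort the authors deposited a ratio, fragments per kilobase relative to 10000 ERCC reads. These values were analysed here with limma 3.58.1 in R 4.3.3: log2(value + 1), 1 term per stage, a fit of all 14 libraries of 7 stages (7 residual degrees of freedom), eBayes with trend, two-sided tests and Benjamini-Hochberg adjustment. The fit was tested on simulated data. The low-value filter of the study's methods was applied to the 4 libraries (FPKM above 2 in 40% or more of them). The second sort was fitted over 30 libraries of 8 groups, which include libraries of Piwil1 mutant males, with the same filter applied to the WT libraries compared. Fold changes on the log2(value + 1) scale understate those of low genes.

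The members, the 23 gene lists and the tests were chosen with earlier results of these data known. Named genes are list members, the 20 named genes with the largest difference in each direction among those with adjusted p under 0.05 and groups that do not overlap, Piwil1 to Piwil4, the 10 most abundant genes of either stage, and any gene stated to be chosen after its values were seen. Of the 505 list members in the file 429 were tested, of which 22 were higher and 14 lower; list symbols without a match were left out, and the values of 1 list member are not reported here. Gene classes were taken by gene ID from RefSeq. Whether the replicate numbers pair the libraries is not known, and the main fit used no pairing. The deviations of the same-numbered pre-leptotene and leptotene libraries correlate at 0.18, but 2 pairs are too few to tell. Alternatives were the pseudocount, the filter, the scaling, the stages in the fit, the trend, the thresholds, a block on the replicate number and each library left out. The 2 deposited columns that match no sample and the tables of oocytes, embryos and whole testes were not used here.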

Additional observations from a re-analysis of the deposited data

How the results depend on the processing

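With no filter, the 4 libraries fitted alone, no sperm stages, no trend or the replicate block, the log2 differences stay the same. Directions under these settings were therefore fixed in advance. All 547 higher and 70 lower genes kept their direction under the other pseudocount and the same-total scaling, and 492 and 68 of them under median ratio scaling (532 and 70 when it was computed over the 4 libraries, a setting chosen after seeing the data). The counts moved as follows, in the order higher and lower at adjusted p under 0.05, then higher and lower past the 4-fold threshold (39 and 1), then list members higher and lower (22 and 14). A pseudocount of 0.1 gave 316, 40, 12, 0, 14 and 9. With no filter on low values they were 281, 19, 17, 1, 15 and 2. Median ratio scaling gave 186, 183, 7, 0, 14 and 37, and that over the 4 libraries 253, 176, 8, 0, 15 and 32. The 4 libraries fitted alone gave 0 for all 6. Without round sperm and mature sperm they were 829, 170, 17, 1, 33 and 32. Without a trend 36 genes were lower, 2 past the 4-fold threshold, and 1 list member was lower, with 0 ribosomal protein genes among them. A 2-fold threshold with adjusted p under 0.05 gave 449 and 21. Leaving out 1 library at a time gave 0 to 1109, 0 to 172, 0 to 80, 0 to 0, 0 to 39 and 0 to 30. A filter at FPKM 5 (446 and 69) and scaling to the same total (583 and 63) kept all counts within 1.5 times. With 1 library left out fewer of them were tested: 379 of the 547 had a value of the same direction without either leptotene library, and 63 of the 70 without either pre-leptotene library. List medians that changed sign with a library left out were those of break formation (-0.06), cohesins (-0.03) and stress genes (-0.03, and -0.02 without leptotene replicate 1) without pre-leptotene replicate 2, spermatid genes (1.05 without that library, 0.25 without leptotene replicate 1) and cell cycle genes (0.06 without pre-leptotene replicate 1, 0.01 without leptotene replicate 2), besides those given with their lists. The cause of these shifts was not tested.

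With the replicate number as a block, a pairing that the labels do not give, 490 genes were higher and 62 lower, with 12 and 0 past the 4-fold threshold.

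Of 53 named genes that passed, 14 passed in every setting that could test them apart from the 4 libraries alone and without leptotene replicate 1: Spo11, Meiob, Rad51ap2, Sycp3, Msh5, Taf7l, CUNH5orf47, Lrriq3, Ift57, Fgf20, Stpg2, Styxl1, Tnnc1 and Bbs7, the last 5 of which could not be tested without either leptotene library. Fgf20, Stpg2, Styxl1, Tnnc1 and Bbs7 had at most 2 FPKM in both pre-leptotene libraries. They were tested only because of the leptotene libraries in which they were high. Their calls under the other settings are therefore not read as support. All 53 lost their call in the fit of the 4 libraries alone. Genes that did not pass changed sign in 4 cases: Rec8 (0.33) and Kit (0.14) without leptotene replicate 1, Kit (0.11) without pre-leptotene replicate 1 and CYTB (-0.0055) under median ratio scaling. Over the libraries left out Rec8 ranged from -0.79 to 0.33 and Kit from -0.43 to 0.14. In the second sort the count of higher genes was 1327 without the WT libraries numbered 1, and that of lower genes 3664 under scaling to the same total. With 2 libraries a stage and 3530000 to 4700000 fragments, a gene of a few FPKM rests on few fragments, and a difference that did not pass is not shown to be absent.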

Other observations

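Genes whose symbols begin with the prefixes of 11 families rich in cilium and flagellum genes, such as Ift, Bbs, Cfap, Dnai and Spag, stood out when the values were seen and were then counted. The prefixes also take in genes of other roles, among them Spag5, a mitotic spindle protein, and Spag9, a JNK scaffold. Of 106 such genes in the file 67 were tested, 16 (23.9%) were higher in leptotene and 0 lower, and 56 had a positive log2 difference, with a median of 0.53 beside 0.19 for all genes and 4.66% of all genes higher. Ift57, an intraflagellar transport protein, was at 15.8 and 14.9 FPKM in pre-leptotene and 69.4 and 45.5 in leptotene (1.80 ± 0.23, adjusted p = 0.006). Cfap206, a radial spoke protein of the axoneme, was at 2.903 and 6.30 against 20.4 and 14.1 (1.75 ± 0.30, adjusted p = 0.0131). Bbs7, a subunit of the BBSome that carries cargo along cilia, was at 1.49 and 0.893 against 6.49 and 5.62 (1.70 ± 0.27, adjusted p = 0.00977), and Ift20 was at 82.8 and 85.6 against 157 and 136 (0.79 ± 0.13, adjusted p = 0.0123). The leptotene libraries lay above the pre-leptotene ones in all 4 genes, as in all 359 higher genes with a gene name. None of the 3 that could be tested without leptotene replicate 1 passed there (adjusted p of at least 0.107), and Ift57 passed without leptotene replicate 2. The filter bears on these counts: Bbs7, Spag1, Spag16, Cfap91 and Cfap43, all called higher, had at most 2 FPKM in both pre-leptotene libraries. They were tested only because of the leptotene libraries. In the second sort 27 of the 35 that could be tested were higher in LZ and 2 were lower, beside 34.1% and 26% of all genes tested there. Ift57, Cfap206, Cfap70, Cfap69, Cfap61 and Dnaaf8 were below 2 in every SPG/PL library and so were tested there only through LZ. These shares are therefore not read as support. Spermatid genes sum to 197 and 1373 FPKM in pre-leptotene and 358 and 763 in leptotene; their part in this pattern was not tested.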
